A study of Mus musculus with 16 samples.

Results

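Control mouse retina was compared between postnatal day 7 (P7) and postnatal day 1 (P1), across all genes. The members were chosen by label: the libraries labelled control at these ages, P1 CTL1, P1 CTL2, P7 CTL1 and P7 CTL2, which are 4 of the 16 libraries of the series. All mice were of the strain C57BL/6, and RNA of the retina was read as polyA+ RNA sequencing. The series was made to follow a conditional knockout (CKO) of Uxt, a gene for a prefoldin-like cochaperone, in which Cre made in the retina acts on loxP sites around exon 3 of Uxt, so cells outside the Cre lineage keep the gene. Besides the 4 controls, values are given for the control libraries at P14 and P30 and for the libraries labelled CKO at P1 and P7, 2 in each group, and the libraries labelled CKO at P14 and P30 entered the fit as well. The labels do not say whether the control animals carried Cre or a floxed allele, nor whether the libraries of a group came from separate animals or from pools. The p-values therefore measure only the spread between libraries of a group, taken over all 16 libraries, which may be technical.

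The mouse retina is unfinished at birth. Ganglion cells, horizontal cells, cones and most amacrine cells are already there, while dividing progenitors go on to make rods, bipolar cells and Müller glia during the days after birth. Over the same days the progenitors leave the cell cycle, rods and cones begin to build outer segments and ribbon synapses, and the inner plexiform circuits gain their receptors and transporters. The eyelids are still closed at both ages.

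Total counts of the 4 libraries lay between 17910122 and 19555104, and those of all 16 libraries between 15807152 and 22815404. Levels are given as CPM (counts per 1000000 counts of the library) after scaling by the trimmed mean of M values (TMM), and a count of 0 in 1 of the 4 libraries allows a level of up to 0.142 to 0.156 CPM (3 counts, counting error only). The replicates of each age lay close together: on the first principal component of the 16 libraries, which held 48.1% of the variance, the P1 controls stood at 75.9 and 75.4 and the P7 controls at 12.5 and 12.4. The P30 libraries stood apart in their spread: the chi-square of the counts between replicates was, per degree of freedom, 4.50 for P30 controls and 33.1 for their counterparts labelled CKO, against 1.51 to 1.71 in the other 6 groups. The retinal label was met by photoreceptor, bipolar, amacrine, horizontal, ganglion and Müller glia genes in all 4 libraries. RNA of the lens was present too: crystallin genes held 4.54% and 4.48% of the counts at P1 and 6.03% and 6.19% at P7. In bulk tissue, fewer cells of a type and less RNA per cell cannot be told apart.

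Of 21115 genes tested, 10502 differed between P7 and P1, or 49.7% (edgeR's quasi-likelihood test, Benjamini-Hochberg adjusted p under 0.05, two-sided). Without the P30 libraries 12500 of 20350 genes were called. A gene is said below to have risen or fallen where it passed this test: 5394 genes rose from P1 to P7 (25.5%) and 5108 fell (24.2%). At least 2-fold changes were fewer and less even, with 2229 genes higher (10.6%) and 1189 lower (5.63%). The libraries of the groups did not overlap in CPM for 16414 genes (77.7%). The median log2 fold change of P7 over P1 was 0.01 over all tested genes, and the middle part, from the lower to the upper quartile, ran from -0.34 to 0.45. With libraries scaled on amacrine, horizontal and ganglion cell genes in place of TMM, that median moved to 0.15. Under this scaling on inner retinal genes 5402 genes rose and 2318 fell, 70.0% rising among the 7720 called against 51.4% under TMM. The scaling takes its reference genes as level by design. Under TMM the medians of these lists were 0.10 (amacrine), 0.06 (horizontal) and -0.45 (ganglion), and 12 of 20 ganglion cell genes fell and 4 rose.

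Each of 46 lists of genes was then described by how many of its tested members rose or fell and by its median, which stand beside the shares of 25.5% and 24.2% and the median of 0.01 over all genes. Of the lists of dividing cells, those of DNA replication and mitosis lay wholly below 0, and those of rods and of proteins that rods and cones share lay highest among the neuronal lists. The list of ocular glands, a tissue outside the retina, had the highest median of all, 10.61 in the fit and 8.08 when members at 0 counts were put at their lower bound.

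**Figure D1:**
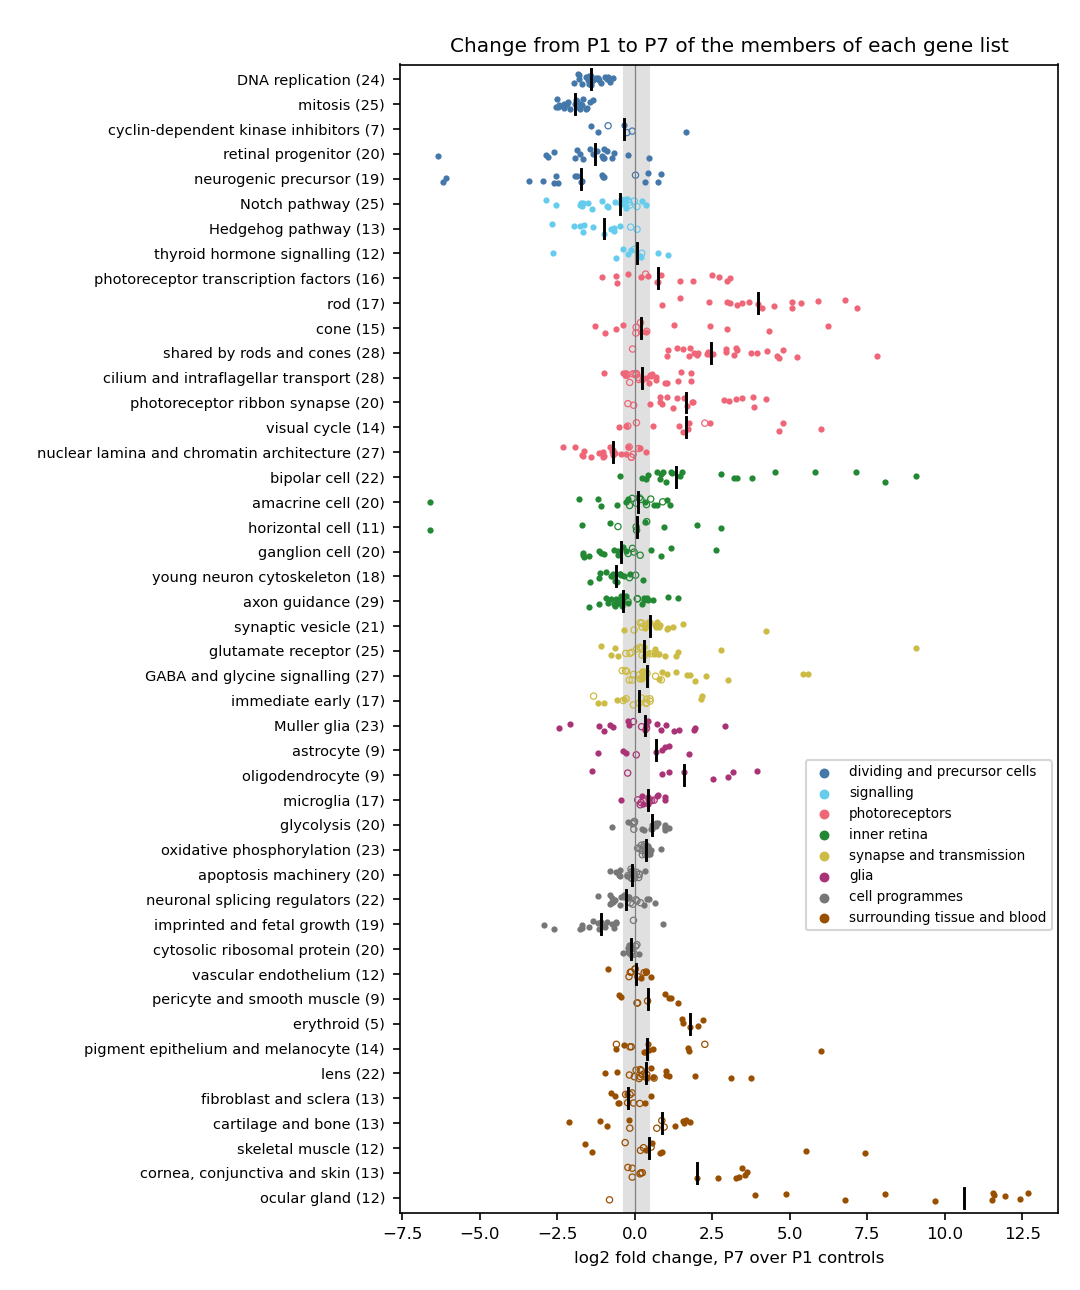
Log2 fold change of P7 over P1 in control retina for the tested members of each gene list, 1 point per gene, with the list's median marked. The lists of DNA replication and mitosis lie below 0 with medians of -1.4 and -1.93, and the rod list lies above 0 with a median of 3.98.

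Genes of cell division fell together. All 25 members of the mitosis list fell by at least 2-fold, with log2 fold changes from -2.53 to -1.33 and a median of -1.93, and their summed level was 2902 and 2895 CPM at P1 and 688 and 672 CPM at P7. All 24 members of the DNA replication list fell as well, 19 of them by at least 2-fold, with a median of -1.4 and a summed level of 1858 and 1877 CPM at P1 and 740.5 and 729 CPM at P7. The marker of cycling cells Mki67 stood at 494 and 469 CPM at P1 and 113 and 112 CPM at P7 (log2 fold change -2.10 ± 0.25, adjusted p = 0.000103). Top2a, which encodes the topoisomerase that untangles chromosomes before they part, stood at 492 and 483 CPM at P1 and 86.1 and 82.5 CPM at P7 (-2.53 ± 0.25, adjusted p = 3.18e-05). The mitotic kinase gene Cdk1 stood at 79.5 and 84.6 CPM at P1 and 24 and 24.6 CPM at P7 (-1.75 ± 0.12, adjusted p = 4.43e-09). In all 3 genes both P7 libraries lay far below both P1 libraries, and none of the 3 was near the counting floor at P7.

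The other mitotic genes with the largest falls were Cenpf, a kinetochore gene, at -2.49 and Bub1, a checkpoint kinase gene, at -2.46. Among replication genes the largest were Mcm10 at -1.96, Pole, the catalytic subunit of a replicative polymerase, at -1.83 and the licensing factor Cdt1 at -1.81. Ccnd1, the D-type cyclin of retinal progenitors, stood at 1319 and 1300.4 CPM at P1 and 190.4 and 185 CPM at P7 (-2.80 ± 0.09, adjusted p = 1.41e-12), and the groups did not overlap. The cyclin-dependent kinase inhibitors did not mirror this. Of 7, Cdkn2c at -1.39, Cdkn1c at -1.19 and Cdkn2d at -0.34 fell. The call on Cdkn2d was lost without 1 of the P1 libraries and under the scaling on inner retinal genes. Cdkn2b alone rose, at 1.64, from a low level of 0.899 and 1.13 CPM at P1 to 3.01 and 3.33 CPM at P7. Cdkn1b, the gene of an inhibitor through which progenitors stop dividing, had 161 and 159 CPM at P1 and 149 and 154 CPM at P7 and did not pass the test (-0.08 ± 0.05, adjusted p = 0.224).

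Promoter sequences of Cdk1 and Top2a are shown because genes of mitosis carry 2 known elements, the CCAAT box and the cell-cycle homology element with the letters TTTGAA, more often than other genes. In RefSeq windows from 250 bases before to 50 bases after the start (GRCm38.p6, 27025 genes, both strands), TTTGAA was found in 16 of the 21 mitosis genes with a window (76.2%) and in 18.1% of all windows. CCAAT was found in 19 of the 21 (90.5%) and in 37.9% of all windows. The DNA replication genes held TTTGAA in 3 of 21 (14.3%) and CCAAT in 14 of 21 (66.7%), and the E2F letters TTCCCGCC in 3 of 21 (14.3%) against 2.24% of all. None of these letter strings overlaps another in the sequences shown. The 250 bases before each start run from 5′ to 3′ on the gene's strand, with TTTGAA and CCAAT, or their reverse complements TTCAAA and ATTGG, in capitals. Both genes lie on the minus strand, Cdk1 with its window at chr10:69352913-69353162 and Top2a at chr11:99024190-99024439 (mm10).
Cdk1: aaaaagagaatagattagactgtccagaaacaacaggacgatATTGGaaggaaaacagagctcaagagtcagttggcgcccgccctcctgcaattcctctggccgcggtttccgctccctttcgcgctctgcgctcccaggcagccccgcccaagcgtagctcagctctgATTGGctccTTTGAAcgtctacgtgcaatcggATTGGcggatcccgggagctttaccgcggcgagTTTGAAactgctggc
Top2a: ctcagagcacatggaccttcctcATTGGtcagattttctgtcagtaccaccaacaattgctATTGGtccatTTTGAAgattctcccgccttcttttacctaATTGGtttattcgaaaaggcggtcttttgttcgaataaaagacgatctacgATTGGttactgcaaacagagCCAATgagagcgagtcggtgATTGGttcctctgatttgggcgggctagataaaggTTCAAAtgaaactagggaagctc

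The Cdk1 window holds 2 TTTGAA and 3 CCAAT matches, and the Top2a window holds 2 and 6. A match is a string of letters, and binding was not measured. Up to 26 of the bases shown for a gene, here and below, lie in a single exon annotated in GENCODE M21.

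Progenitor identity genes fell with the cell cycle, with 19 of 20 members of the retinal progenitor list falling, 14 by at least 2-fold (median -1.28). Fgf15, a growth factor of progenitors at chr7:144896531-144900953 (mm10), had the largest fall of any gene under the naming rule, with 135 and 126 CPM at P1 and 1.82 and 1.42 CPM at P7 (-6.33 ± 0.14, adjusted p = 3.13e-16). The secreted Wnt modulator Sfrp2 fell by less, at -1.03.

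Genes that mark cells about to become neurons moved in both directions. Of 19 neurogenic precursor genes, 14 fell and 4 rose (median -1.73). Foxn4, the factor that primes progenitors for amacrine and horizontal fates, stood at 94.4 and 93 CPM at P1 and 1.45 and 1.27 CPM at P7 (-6.10 ± 0.14). Atoh7, which is needed for ganglion cells, stood at 33.9 and 33.6 CPM at P1 and 0.622 and 0.294 CPM at P7 (-6.20 ± 0.22), and was the only tested gene that went from at least 20 CPM to under 1 CPM. No P7 library of either gene came near a P1 library. The proneural gene Neurog2 fell by 2.60 on the log2 scale. The 4 genes that rose were Neurod1 at 0.84, Insm1 at 0.75, Otx2 at 0.42 and Neurod4 at 0.35, all factors that young photoreceptors or bipolar cells keep using. Otx2 lost its call whenever 1 of the 4 control libraries was left out, with 269 and 272 CPM at P1 and 365 and 361 CPM at P7.

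The signals that keep progenitors dividing fell as well. Of 25 Notch pathway genes 18 fell and 2 rose (median -0.48). The receptor gene Notch1 stood at 375 and 373 CPM at P1 and 122 and 112 CPM at P7 (-1.67 ± 0.05), the ligand genes Dll1 and Dll3 changed by -1.69 and -2.53, and the target Hes5 stood at 55.5 and 59.5 CPM at P1 and 7.31 and 8.62 CPM at P7 (-2.85 ± 0.12). Hes1, a target that Müller glia also use, fell by 0.88 on the log2 scale. About 31.8% of the exon length of Hes5 is shared with a gene on the opposite strand, and reads of the 2 cannot be told apart without the strand setting. The ligand gene Jag2, at 0.36, and the modifier Rfng, at 0.23, rose, and Rfng lost its call under at least 1 alternative. No member of the Hedgehog list rose and 11 of 13 fell (median -1.0), led by the pathway's readout Gli1 at 81.6 and 86.6 CPM at P1 and 12.8 and 13.5 CPM at P7 (-2.68 ± 0.13).

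Thyroid hormone handling shifted without a common direction, with 5 of 12 members rising and 5 falling. Under the scaling on inner retinal genes 3 rose and 1 fell, and with DESeq2 2 rose. With genes of tissue around the retina left out of the TMM scaling 3 rose. Fewer than 5 also rose whenever 1 of the 4 control libraries was left out. Dio2, the deiodinase that makes active hormone, rose from 2.79 and 4.13 CPM to 6.59 and 7.78 CPM (1.06 ± 0.16), and Dio3, the deiodinase that destroys it, fell from 8.70 and 8.41 CPM to 1.56 and 1.18 CPM (-2.65 ± 0.24). The hormone-binding crystallin Crym rose by 0.74. Thrb, the receptor gene that cones need for their green opsin, rose by 0.20 and its partner Rxrg fell by 0.61 on the log2 scale. Both calls on these receptor genes were lost under at least 1 alternative.

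Many genes of the photoreceptor lineage rose, and their regulators are given first. Of 16 transcription factors of the photoreceptor lineage, 11 rose and 4 fell (median 0.74). Crx, the homeobox factor that switches on most photoreceptor genes, stood at 158 and 159 CPM at P1 and 579 and 582 CPM at P7 (1.88 ± 0.04, adjusted p = 2.54e-17). Nrl, the leucine zipper factor that sets rod against cone fate, stood at 70.7 and 70.6 CPM at P1 and 552 and 557 CPM at P7 (2.97 ± 0.07), and its target Nr2e3, which represses cone genes in rods, at 75.5 and 78.2 CPM at P1 and 655 and 652 CPM at P7 (3.09 ± 0.05). In all 3 the libraries of an age differed by little and the ages did not overlap. Samd11, which encodes a SAM-domain protein of rods, stood at 60.1 and 63.7 CPM at P1 and 411 and 408 CPM at P7 (2.73 ± 0.22). The members that fell were Rax at -1.06, Rxrg at -0.61, Rorb at -0.56 and Prdm1 at -0.21. Rax is a factor of progenitors and young photoreceptors, and Prdm1 one of newly born photoreceptors. Under the scaling on inner retinal genes the calls on Rxrg and Prdm1 were lost. The call on Prdm1 was also lost with DESeq2 and whenever 1 of the 4 control libraries was left out.

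The upstream bases of Crx, Sag and Samd11 are shown because Crx and Otx2 bind sites with the letters TAATCC, and these genes rose. TAATCC was found in 12 of 32 rod and shared photoreceptor genes with a window (37.5%), in 5 of 15 photoreceptor transcription factors (33.3%), in none of the 21 mitosis genes and in 7.16% of all 27025 windows. Among tested genes with a window, 148 of 1520 that rose at least 2-fold held it (9.74%), 34 of 756 that fell at least 2-fold (4.50%) and 5.80% of the other tested genes. The letters TGCTGAC of the Nrl response element were found in 1 of the 32 genes (3.12%) and in 4.58% of all windows. The 5 motifs searched, these and those given for the dividing cells, and the 5 genes printed were picked with these shares already seen. The bases run from 5′ to 3′ on the gene's strand, with TAATCC or its reverse complement GGATTA in capitals: Crx on the minus strand at chr7:15879956-15880205, Sag on the plus strand at chr1:87803430-87803679 and Samd11 on the minus strand at chr4:156255343-156255592 (mm10).
Crx: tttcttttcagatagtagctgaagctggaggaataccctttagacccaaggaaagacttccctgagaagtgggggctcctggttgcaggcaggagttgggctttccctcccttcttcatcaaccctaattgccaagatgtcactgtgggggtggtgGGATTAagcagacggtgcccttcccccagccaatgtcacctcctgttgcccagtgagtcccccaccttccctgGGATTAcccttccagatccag
Sag: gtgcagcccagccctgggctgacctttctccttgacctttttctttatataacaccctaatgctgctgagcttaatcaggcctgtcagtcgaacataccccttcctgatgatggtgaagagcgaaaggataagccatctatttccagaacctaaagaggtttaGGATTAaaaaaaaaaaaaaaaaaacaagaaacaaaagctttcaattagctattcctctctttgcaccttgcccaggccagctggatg
Samd11: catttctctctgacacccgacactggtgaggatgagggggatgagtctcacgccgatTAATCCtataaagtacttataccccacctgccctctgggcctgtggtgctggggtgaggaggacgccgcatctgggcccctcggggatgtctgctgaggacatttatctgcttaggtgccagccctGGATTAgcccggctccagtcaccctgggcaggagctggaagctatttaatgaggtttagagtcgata

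Crx and Samd11 hold 2 matches each in these bases, and Sag holds 1. Crx thus has in its own upstream bases the letters that its product binds, as a description of the sequence only.

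All 17 rod genes rose, 16 of them by at least 2-fold, with a median of 3.98 and a summed level of 666 and 679.9 CPM at P1 and 4610.0 and 4617 CPM at P7. Sag, rod arrestin, stood at 26.1 and 27.6 CPM at P1 and 609.9 and 596 CPM at P7 (4.49 ± 0.07). Pde6b, a catalytic subunit of the rod phosphodiesterase, stood at 9.93 and 10.2 CPM at P1 and 342 and 337 CPM at P7 (5.07 ± 0.07), and Cnga1, the rod cGMP-gated channel, at 0.804 and 0.413 CPM at P1 and 68.7 and 69.8 CPM at P7 (6.8 ± 0.16). The last of these had under 1 CPM in both P1 libraries. Gnat1, the alpha subunit of rod transducin, stood at 1.18 and 1.91 CPM at P1 and 25.2 and 23.3 CPM at P7 (3.98 ± 0.12), and its gamma partner Gngt1 at 1.61 and 2.58 CPM at P1 and 82.4 and 89.2 CPM at P7 (5.37 ± 0.15). Gnat1 was still low at P7 beside the later ages: the P14 controls had 1269.7 and 1244 CPM.

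Cone genes did not move as a group. Of 15, 7 rose and 4 fell (median 0.20), and the summed level was 641 and 631 CPM at P1 and 724 and 709.5 CPM at P7. The cone transducin gene Gnat2 stood at 18.5 and 20.6 CPM at P1 and 19.9 and 20.4 CPM at P7 and did not pass the test (0.05 ± 0.10, adjusted p = 0.747). Pde6c, the cone phosphodiesterase, stood at 19.3 and 19.5 CPM at P1 and 21.6 and 22.7 CPM at P7 (0.19 ± 0.15, adjusted p = 0.32), and Opn1sw, the short-wavelength opsin, at 79.0 and 78.4 CPM at P1 and 83.0 and 78.5 CPM at P7 (0.04 ± 0.51, adjusted p = 0.965). These 3 genes thus had counts at P1, when the rod genes of the same steps were near the floor or low. Opn1sw shares 15.5% of its exon length with a gene on the opposite strand, and the strand setting is not known. Arr3, cone arrestin, by contrast stood at 1.09 and 1.39 CPM at P1 and 24.9 and 25.1 CPM at P7 (4.33 ± 0.20), and Pde6h, the inhibitory subunit of the cone enzyme, at 3.78 and 4.44 CPM at P1 and 21.5 and 23.0 CPM at P7 (2.44 ± 0.13). Opn1mw, the middle-wavelength opsin, had 0 counts in both P1 libraries and 20 counts in both P7 libraries together, at least 6.81-fold higher. The genes that fell were Ccdc136 at -1.28, the cone channel subunits Cnga3 at -0.96 and Cngb3 at -0.37, and Rxrg at -0.61. Under the scaling on inner retinal genes the calls on Rxrg and Cngb3 were lost. The call on Cngb3 was also lost without replicate 1 of the P1 controls or replicate 2 of the P7 controls.

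Set beside each other per kilobase of exon, some but not all rod and cone partners crossed over between the ages. The level of Pde6b went from 2.00 to 67.5 CPM per kb while Pde6c went from 6.55 to 7.45. Cnga1 went from 0.0961 to 10.9 and Cnga3 from 2.19 to 1.13. The rod partner was the lower of each of these pairs at P1 and the higher at P7. For transducin alpha the 2 were close at P7, with 8.0 for Gnat1 and 6.73 for Gnat2 against 0.51 and 6.53 at P1. For the gamma subunits the cone partner was the higher per kilobase at P7, with 24.4 for Gngt1 and 43.6 for Gngt2. In CPM these 2 were close at P7, with 82.4 and 89.2 for Gngt1 and 77.8 and 85.9 for Gngt2. The length is that of all annotated exons of a gene together, 3515 bases for Gngt1 and 1877 for Gngt2, and the order depends on it. In CPM the arrestins did not cross, since the rod gene Sag had more than the cone gene Arr3 at both ages. The levels come from 2 libraries at each age and the order between genes was not tested.

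**Figure D2:**
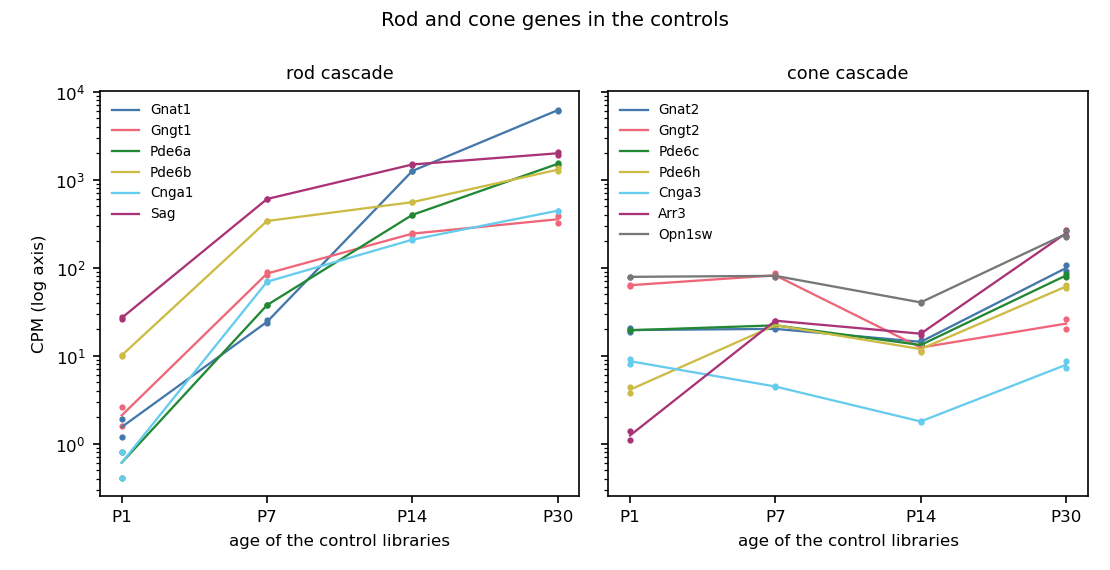
CPM on a log axis of rod (left) and cone (right) phototransduction genes in the control libraries of P1, P7, P14 and P30, with points for the 2 libraries and lines through their means. From P1 to P7 the rod genes climb, from 9.93 and 10.2 to 342 and 337 CPM for Pde6b, while Gnat2 stays between 18.5 and 20.6 CPM.

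Genes that rods and cones share rose in 27 of 28 cases, all by at least 2-fold (median 2.47), and their summed level was 1027 and 1013 CPM at P1 and 5445 and 5423 CPM at P7. Prph2, a tetraspanin of the outer segment disc rim, stood at 27.5 and 24.7 CPM at P1 and 498 and 501 CPM at P7 (4.26 ± 0.06). Grk1, the opsin kinase, stood at 5.20 and 5.21 CPM at P1 and 144 and 145 CPM at P7 (4.79 ± 0.07). The P7 libraries of both genes stood well clear of the P1 libraries. The calcium sensor gene Rcvrn changed by 4.61 and the matrix gene Impg1 by 5.22.

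Cilium genes rose less uniformly: 15 of 28 rose and 4 fell (median 0.24). Rpgrip1, a protein of the connecting cilium, stood at 194 and 187 CPM at P1 and 699 and 658 CPM at P7 (1.83 ± 0.11), and the kinase gene Mak, which controls cilium length in photoreceptors, changed by 1.80. Kif3a, a motor subunit that all cilia use, fell by 0.98 on the log2 scale. Ift140 at -0.32 and Iqcb1 at -0.30 fell by little, and under the scaling on inner retinal genes both of these calls were lost. The call on Iqcb1 was also lost without replicate 1 of the P1 controls or without either P7 control.

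The ribbon synapse of photoreceptors showed a clearer rise, with 18 of 20 genes rising, 14 by at least 2-fold, and none falling (median 1.64). Slc17a7, the vesicular glutamate transporter of photoreceptors and bipolar cells, stood at 8.99 and 11.2 CPM at P1 and 194 and 186 CPM at P7 (4.23 ± 0.12). The complexin gene Cplx4 changed by 3.84 and Cabp4, the calcium sensor of the release channel, by 3.81. Ctbp2, whose long isoform builds the ribbon, rose by only 0.50, and isoforms were not counted apart. Bsn, the large active-zone scaffold, had 90.5 and 88.9 CPM at P1 and 79.6 and 74.5 CPM at P7 and did not pass the test (-0.22 ± 0.09, adjusted p = 0.0545).

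Of 14 visual cycle genes 9 rose and 2 fell (median 1.64). Rdh12 and Rdh8, the retinal reductases of photoreceptors, changed by 4.65 and 4.77, and Rlbp1, the retinal-binding protein of Müller glia and pigment epithelium, stood at 55.7 and 60.7 CPM at P1 and 156 and 158 CPM at P7 (1.43 ± 0.18). The genes that fell were Stra6 at -0.52 and Rdh11 at -0.29, each with a call lost under at least 1 alternative. Genes of pigment epithelium, which touches the retina and shares part of this list, had a summed level of 1102 and 1100.2 CPM at P1 and 1284 and 1296 CPM at P7, and their part in the visual cycle list was not tested.

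Genes of chromatin and the nuclear envelope fell as photoreceptors rose, with 20 of 27 falling and 2 rising (median -0.70). Uhrf1, which copies DNA methylation at replication, stood at 169 and 168 CPM at P1 and 35.9 and 32.6 CPM at P7 (-2.30 ± 0.07). The high mobility group gene Hmgb2 changed by -1.92. Lbr, the lamin B receptor that anchors heterochromatin to the envelope and is switched off in maturing rods, changed by -1.14 ± 0.09. The 2 that rose were Dnmt3a, a de novo methyltransferase gene, at 0.35 and Sun1, at 0.17, whose call was lost under at least 1 alternative.

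Bipolar cell genes rose in 21 of 22 cases (median 1.34), and their summed level was 493 and 495 CPM at P1 and 1018 and 977 CPM at P7. Grm6, the glutamate receptor of ON bipolar dendrites at chr11:50850685-50866208, stood at 0.189 and 0.258 CPM at P1 and 125 and 123 CPM at P7 (9.08 ± 0.14, adjusted p = 2.16e-19). Vsx1, a homeobox gene of bipolar subtypes, stood at 0.284 and 0.206 CPM at P1 and 38.0 and 32.8 CPM at P7 (7.13 ± 0.24). Bhlhe23, a factor of rod bipolar cells, had 2 counts at P1 and 605 at P7 over both libraries, 309 times as many, with an interval for counting error from 85.1 to 2556. These 3 genes went from the counting floor or near it to well measured levels. Trpm1, the channel that Grm6 controls, was on the contrary high at both ages, with 175 and 178 CPM at P1 and 214 and 203 CPM at P7 (0.24 ± 0.05), and the libraries of the ages did not overlap. Prkca, a kinase gene of rod bipolar cells, changed by 0.82 and Cabp5 by 1.00. Lrit3 alone fell, at -0.47, and the call was lost under the scaling on inner retinal genes and without 1 P7 library.

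Ganglion cell genes fell in 12 of 20 cases and rose in 4 (median -0.45), with a summed level of 816 and 834 CPM at P1 and 677 and 688 CPM at P7. The POU factor genes that specify ganglion cells fell: Pou4f1 stood at 59.4 and 63.9 CPM at P1 and 19.8 and 19.1 CPM at P7 (-1.66 ± 0.09) and Pou4f2 at 21.9 and 19 CPM at P1 and 7.16 and 7.64 CPM at P7 (-1.46 ± 0.17), with Pou4f3 at -1.67. The T-box gene Eomes changed by -1.62. Nefh, the heavy neurofilament of thick mature axons, went the other way, with 2.93 and 2.53 CPM at P1 and 18.2 and 15.3 CPM at P7 (2.61 ± 0.20). The other genes that rose were Isl1 at 1.16, which bipolar cells also express, Irx2 at 0.84 and Thy1 at 0.53. Nefl, the light neurofilament, stood at 89.0 and 89.0 CPM at P1 and 74.1 and 79.7 CPM at P7 and did not pass the test (-0.21 ± 0.14, adjusted p = 0.261), and 32.8% of its exon length is shared with its neighbour Nefm.

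Amacrine and horizontal cell lists had medians near that of all genes, 0.10 and 0.06, with 5 rising and 7 falling of 20 and 4 rising and 3 falling of 11. Ptf1a, the factor that specifies both types, had 226 counts at P1 and 2 at P7 over both libraries, a P1 level 111 times the P7 level with a counting interval from 30.3 to 920. Onecut1 and Onecut2, factors of early horizontal cells, changed by -1.70 and -0.80, and 52.8% of the exon length of Onecut1 and 40.4% of that of Ptf1a is shared with another gene. Of genes of transmitter handling, the vesicular GABA and glycine transporter Slc32a1 rose by 1.13 and the glycine transporter Slc6a9 by 1.03. The enzymes that make GABA parted, with Gad1 at 30.3 and 30.7 CPM at P1 and 49.8 and 51.1 CPM at P7 (0.73 ± 0.12) and Gad2 at 50.6 and 45.6 CPM at P1 and 14.1 and 13.7 CPM at P7 (-1.79 ± 0.12). Libraries of the 2 ages did not overlap for either enzyme. Calb1, calbindin of horizontal and some amacrine cells, changed by 2.02. Chat, of starburst amacrine cells, had 2.41 and 1.75 CPM at P1 and 3.06 and 2.40 CPM at P7 (0.38 ± 0.25, adjusted p = 0.22) and Lhx1, of horizontal cells, 4.54 and 4.02 CPM at P1 and 4.15 and 4.70 CPM at P7 (0.05 ± 0.23, adjusted p = 0.888), and neither passed the test.

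**Figure D3:**
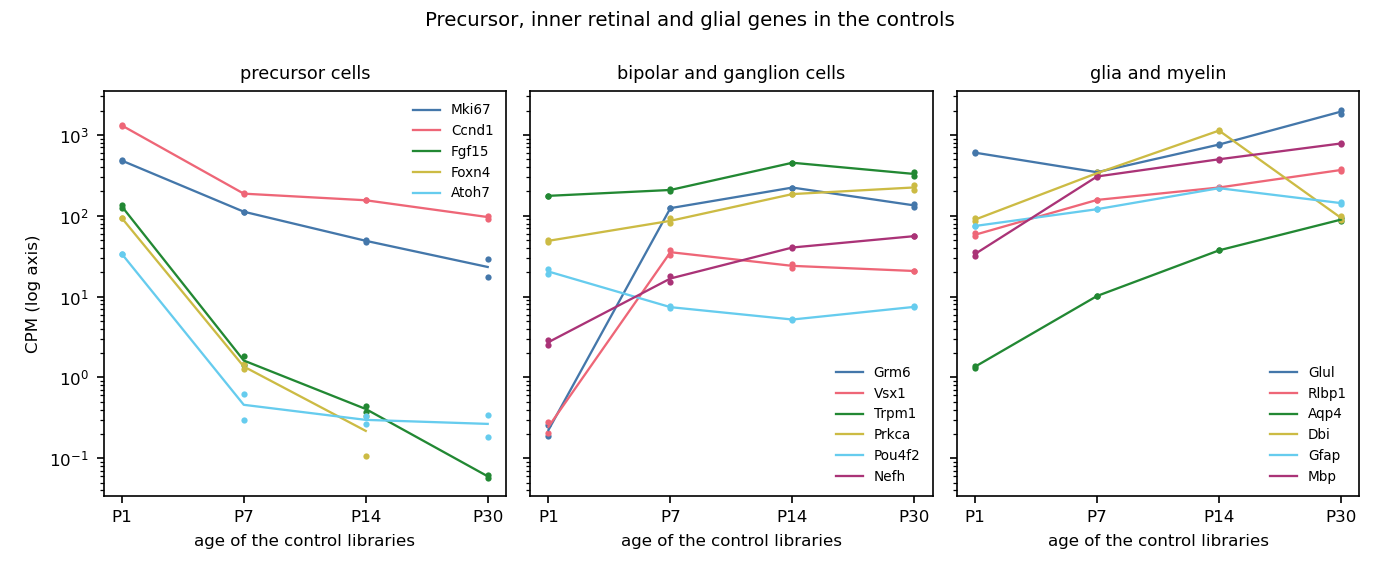
CPM on a log axis of genes of precursor cells (left), bipolar and ganglion cells (middle) and glia (right) in the control libraries of P1, P7, P14 and P30, with points for the libraries and lines through their means (0 CPM is not drawn). Between P1 and P7 Fgf15 drops from 135 and 126 to 1.82 and 1.42 CPM and Grm6 climbs from 0.189 and 0.258 to 125 and 123 CPM, while Trpm1 stays within 175 to 214 CPM.

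Genes of growing neurites fell while genes of transmission rose. Of 18 genes of the young neuron cytoskeleton 15 fell and 1 rose, Map2 (median -0.61). Dcx, doublecortin of migrating neurons, changed by -1.43 ± 0.10, Gap43, of growth cones, by -1.15 ± 0.07 and Stmn1, a microtubule destabiliser, by -1.11 ± 0.04. Of 29 axon guidance genes 18 fell and 8 rose (median -0.39), the largest being Ephb2 at -1.46 among falls and the netrin receptor Unc5d at 1.4 among rises.

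Of 21 synaptic vesicle genes 15 rose and 1 fell (median 0.50), with Syp, synaptophysin, at 1.56 and Sv2b at 1.22. Stx1a, the one that fell, at -0.36, lost its call under at least 1 alternative. Of 25 glutamate receptor genes 12 rose and 4 fell (median 0.31). Grin2b and Grin2a, which encode modulatory NMDA receptor subunits, rose. Grin2b had 9.65 and 10.5 CPM at P1 and 20.3 and 19.1 CPM at P7 (0.97 ± 0.14), and Grin2a 1.28 and 0.928 CPM at P1 and 2.90 and 2.94 CPM at P7 (1.39 ± 0.35). Grin2b was the higher per kilobase at both ages, with 0.405 and 0.793 CPM per kb against 0.0615 and 0.163 for Grin2a, the subunit that mature synapses favour. The kainate receptor genes moved apart, Grik1, of OFF bipolar cells, at 2.79 and Grik3 at -0.55.

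Of 27 genes of GABA and glycine signalling 13 rose and none fell (1 to 4 fell under 5 of the other settings) (median 0.40). The receptor subunits Gabrr1 and Gabrr3 changed by 5.59 and 5.43. Slc12a5, the chloride exporter that makes GABA inhibitory, stood at 46.6 and 46.0 CPM at P1 and 163 and 157 CPM at P7 (1.79 ± 0.12, adjusted p = 2.01e-07). Slc12a2, the chloride importer of young neurons, stood at 75.1 and 76.6 CPM at P1 and 90.5 and 87.3 CPM at P7 (0.23 ± 0.06, adjusted p = 0.00318). Both genes thus rose by more than their errors, the importer by little. Per kilobase the pair was near equal at P1, with 6.22 for Slc12a5 and 6.95 CPM per kb for Slc12a2, and apart at P7, with 21.5 and 8.15. The immediate early genes showed no shared direction, with 2 of 17 rising, Egr2 at 2.16 and Egr3 at 2.15, and 4 falling, Fos at -1.18, Arc at -1.0, Dusp1 at -0.57 and Fosl2 at -0.35. Calls on Egr2, Arc, Dusp1 and Fosl2 were lost under at least 1 alternative, and 7 to 8 members rose where P30 or all libraries labelled CKO were left out.

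Müller glia genes moved both ways, with 12 of 23 rising and 8 falling (median 0.35) and a summed level of 4207 and 4279 CPM at P1 and 3871 and 3913 CPM at P7. The largest falls were those of Spc25, a kinetochore gene, at -2.44, Cyp26a1, a retinoic acid hydroxylase gene, at -2.07 and Dkk3 at -1.16. Glul, the glutamine synthetase gene, fell as well, with 595 and 610.1 CPM at P1 and 341 and 349 CPM at P7 (-0.80 ± 0.05, adjusted p = 1.57e-10). Aqp4, the water channel of glial endfeet, stood at 1.32 and 1.39 CPM at P1 and 10.1 and 10.2 CPM at P7 (2.90 ± 0.16), and Abca8a and Dbi changed by 1.96 and 1.91. The glutamate transporter Slc1a3, 125 and 129.8 CPM at P1 and 124 and 123 CPM at P7, did not pass the test (-0.04 ± 0.18, adjusted p = 0.872).

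Of 12 endothelial genes 3 rose and 1 fell (median 0.06), with 1 rising without replicate 2 of the P7 controls and 5 rising without P30 or on controls alone. Of 9 pericyte and smooth muscle genes 4 rose, 3 of them by at least 2-fold, and 2 fell (median 0.42), with a summed level of 489 and 484 CPM at P1 and 807 and 807 CPM at P7. Cnn1, calponin of smooth muscle, had the largest rise of these, at 1.4. Kdr, the receptor of endothelial growth factor, was the endothelial gene that fell, at -0.85 ± 0.09. Of 9 astrocyte genes 5 rose and 3 fell (median 0.69), among them Gfap at 75.5 and 74.0 CPM at P1 and 121 and 120.3 CPM at P7 (0.69 ± 0.08), S100b at 1.74 and Pax2, a factor of immature astrocytes and the optic stalk, at -1.20. Myelin genes, which oligodendrocytes of the optic nerve express and the mouse retina itself lacks, rose in 7 of 9 cases, with a summed level of 132 and 136 CPM at P1 and 578 and 578 CPM at P7. Mbp, myelin basic protein, stood at 32.1 and 35.3 CPM at P1 and 309 and 303 CPM at P7 (3.18 ± 0.06), with Mag at 3.00 and Mobp at 3.93. Ermn fell at -1.37, and Mog did not pass the test (-0.23 ± 0.21, adjusted p = 0.401). Of 17 microglia genes 10 rose and 1 fell (median 0.44), with a summed level of 212 and 212 CPM at P1 and 283 and 275 CPM at P7. Csf1r, the receptor on which microglia depend, stood at 23.2 and 22.8 CPM at P1 and 48.5 and 43.1 CPM at P7 (0.99 ± 0.09), and the complement gene C1qa and the chemokine receptor gene Cx3cr1 changed by 0.75 and 0.73. The gene that fell, Tmem119 at -0.43, is a marker of mature microglia, and its call was lost under at least 1 alternative.

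Energy metabolism genes rose by small amounts. Of 20 glycolysis genes 13 rose and 2 fell (median 0.55), with Ldha, lactate dehydrogenase, at 358 and 360.0 CPM at P1 and 772 and 770.3 CPM at P7 (1.1 ± 0.08), and Hk1 and the neuronal enolase Eno2 at 0.99 and 0.99. The glucose transporter Slc2a1 fell by 0.74 on the log2 scale and Pgk1 by 0.22, the latter with a call lost under at least 1 alternative. Gapdh and Pkm did not pass the test, at -0.03 ± 0.06 (adjusted p = 0.73) and -0.01 ± 0.06 (adjusted p = 0.956). All 23 oxidative phosphorylation genes had fitted values above 0, between 0.10 and 0.85, of which 13 rose, Ndufa4 by the most. That count was 22 to 23 where the P30 libraries were left out of the fit or the 4 libraries stood alone.

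Genes of fetal growth fell in 17 of 19 cases (median -1.09), with a summed level of 7963 and 7926 CPM at P1 and 4470.2 and 4369.9 CPM at P7. Plagl1, an imprinted zinc finger gene, stood at 569 and 557 CPM at P1 and 93 and 93 CPM at P7 (-2.60 ± 0.05). The fetal RNA-binding protein genes Igf2bp1 and Lin28b changed by -2.92 and -1.78, and Hmga2, an architectural chromatin gene of young progenitors, by -1.71. Igf2, the fetal growth factor, changed by -1.35 ± 0.09 and H19, the noncoding RNA beside it, by -0.66 ± 0.06, and 62.8% of the exon length of Igf2 is shared with another annotated gene. Lin28a was the one that rose, at 0.92, with only 0.851 and 0.464 CPM at P1 and 1.30 and 1.22 CPM at P7, and its call was lost without 1 of the control libraries and with DESeq2. Of 22 splicing regulators 12 fell and 4 rose (median -0.27): Ptbp1, which represses neuronal exons, changed by -0.72 ± 0.05, its neuronal counterpart Ptbp2 by -0.79 ± 0.06 and Rbfox2 by -0.79, while Mbnl1 rose by 0.65 and the neural activator Srrm4 by 0.31. Under the scaling on inner retinal genes 7 of the 22 fell.

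Apoptosis genes changed little, with 1 of 20 rising and 6 falling (median -0.09), among them the apoptosome gene Apaf1 at -0.81 and Bcl2l11 at -0.61. Ribosomal protein genes had a median of -0.12, with 10 of 20 falling and 1 rising. Both medians turned to above 0, at 0.05 and 0.02, under the scaling on inner retinal genes, where 2 apoptosis genes and no ribosomal protein gene fell, so no direction is given for either list.

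Lists of other tissues of the eye moved with age as well. Lens genes had a summed level of 44049 and 43639 CPM at P1 and 57913 and 59496 CPM at P7, with 9 of 22 rising (14 to 18 under the fits without P30, on controls alone or scaled on inner retinal genes), and the late lens gene Crybb2 stood at 127 and 140.1 CPM at P1 and 1768 and 1801 CPM at P7 (3.74 ± 0.19). Gland genes had a summed level of 7.76 and 10.5 CPM at P1 and 1746 and 1852 CPM at P7, 11 of 12 rising, and Mucl1 and Mup4 had 0 counts at P1 and were at least 608-fold and 359-fold higher at P7. Cornea and skin genes had 1899.7 and 1964 CPM at P1 and 2772 and 2793 CPM at P7, with Krt71, a keratin of hair root sheaths, at 21.2 and 21.5 CPM at P1 and 236 and 236 CPM at P7. Muscle genes had 2486 and 2544 CPM at P1 and 3370.3 and 3392 CPM at P7, and their myosins switched: the embryonic Myh3 stood at 382 and 389 CPM at P1 and 132 and 123 CPM at P7 (-1.59 ± 0.05) and the adult fast Myh1 at 5.06 and 4.95 CPM at P1 and 232 and 229 CPM at P7 (5.52 ± 0.25). Red cell genes had 626 and 613 CPM at P1 and 1933 and 2031 CPM at P7, with all 5 rising, and fibroblast and sclera genes 21004 and 20932 CPM at P1 and 18898 and 18968 CPM at P7. Cartilage and bone genes had 585 and 584 CPM at P1 and 345 and 339.6 CPM at P7, yet 5 of 13 rose, all by at least 2-fold, and 4 fell (median 0.87, 3 rising without replicate 1 of the P1 controls). The fall of that sum came mostly from the cartilage collagen genes Col2a1, at 309 and 299 CPM at P1 and 168 and 162 CPM at P7 (-0.88), and Col9a1, at 182 and 186 CPM at P1 and 84.4 and 86.0 CPM at P7 (-1.11). Of the 14 members of the cartilage and bone list, 9 had a mean under 5 CPM at both ages. Counts of crystallins, keratins, globins, Mup and Scgb genes are uncertain between near-identical copies. The amount of such tissue in a library and its age cannot be told apart, and its part in genes that retina shares with it was not tested. With genes of these tissues left out of the TMM scaling, 10644 genes were called.

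**Figure D4:**
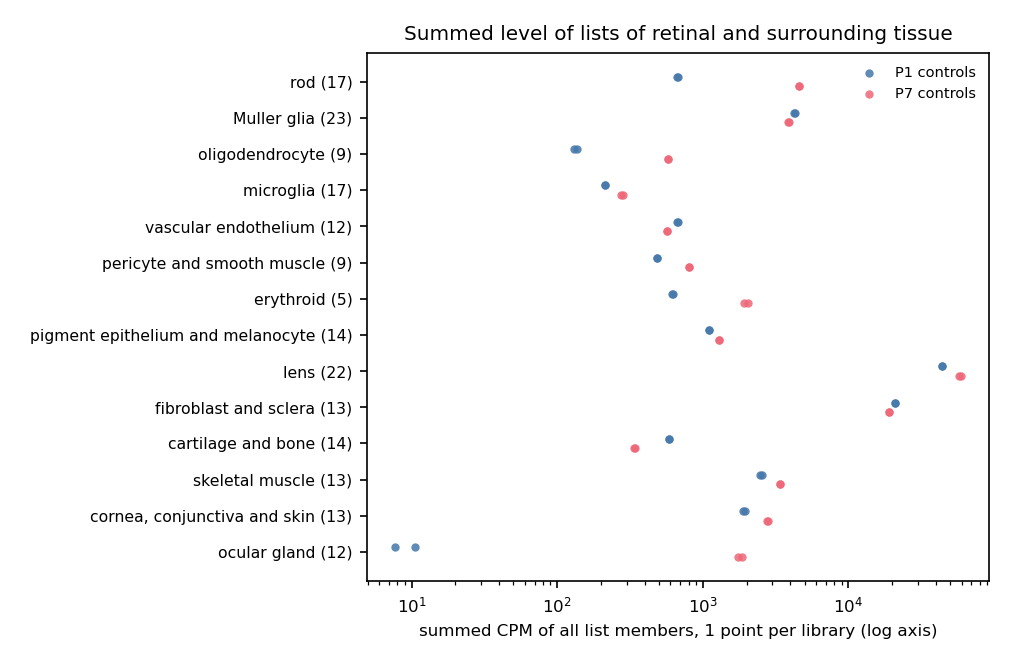
Summed CPM, on a log axis, of lists of retinal and surrounding tissue in the 2 P1 (blue) and 2 P7 (red) control libraries, with the number of list members in brackets. The gland list goes from 7.76 and 10.5 CPM to 1746 and 1852 CPM, the rod list from 666 and 679.9 CPM to 4610.0 and 4617 CPM, and the fibroblast list from 21004 and 20932 CPM to 18898 and 18968 CPM.

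The 8 largest rises over all genes were all of secretory gland products rather than of the retina: Scgb2b2, Scgb2b7, Obp1b, Scgb2b27, Obp1a, Mucl2, Scgb1b7 and Mucl1. Scgb2b2, a secretoglobin, had 0 counts at P1 and 783 and 788 CPM at P7, at least 10610-fold higher, and the family's copies are alike. Of 60 genes that went from a mean under 1 CPM to at least 20 CPM, 13 were in a list. Of these, 6 were ocular gland genes and 1, Myh4, was a muscle myosin gene, and the retinal ones included Cnga1, Pde6a, Impg1, Grm6 and Vsx1. The 47 in no list included many of the Scgb gland family. Among the 8 largest falls were those of Fgf15, Atoh7, Foxn4, Hdc, Hif3a, Hs3st4 and Ccdc60. Hdc, the histamine-making enzyme, stood at 19.3 and 21 CPM at P1 and 2.07 and 1.32 CPM at P7 (-3.57 ± 0.18), and Hif3a, a hypoxia-inducible factor gene, changed by -3.26 ± 0.21. By kind of gene, 56.4% of 16503 protein-coding genes were called, 30.8% of 998 lincRNA genes and 18.4% of 904 processed pseudogenes, without regard to their different depths.

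Whether the first week's changes went on was asked by testing the change from P7 to P14 in controls against that from P1 to P7. The 2 steps share the P7 controls, so only their values and this test are given. Of 21115 genes, 5441 differed between the steps (25.8%), 2649 with the later step higher (12.5%) and 2792 with it lower (13.2%). Gnat1 was a gene whose later step was the larger, 5.70 ± 0.08 after 3.98 ± 0.12 (difference 1.72 ± 0.19, adjusted p = 1.24e-06). Crx, after 1.88 ± 0.04 in the first step, had 0.02 ± 0.04 in the later one (difference -1.85 ± 0.07, adjusted p = 1.51e-13). Grm6 likewise had 0.85 ± 0.06 after 9.08 ± 0.14 (difference -8.24 ± 0.19), and Arr3 turned, with -0.49 ± 0.13 after 4.33 ± 0.20 (difference -4.82 ± 0.28).

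By lists, the rod genes had a median of 1.32 in the later step after 3.98 and the cone genes -0.74 after 0.20. Mitosis genes fell further, with -0.85 after -1.93, and in 17 of 25 the later fall was the smaller by the test (8 without either P7 control, 6 under the scaling on inner retinal genes). Bipolar genes had 1.06 after 1.34. Glul reversed, rising from the 341 and 349 CPM of P7 to 748 and 773 CPM at P14 (1.14 ± 0.05, difference of the steps 1.94 ± 0.09). Gland genes fell back, with a median of -3.70. Scaling by library size alone left 26.5% of the 5681 differing genes with the later step higher, and scaling on inner retinal genes 31.7% of 2880, against 48.7% under TMM. Without either P7 control the number of differing genes was 3405 or 3308, and without the P30 libraries 8296.

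The same change with age was measured in the libraries labelled CKO, which share no library with the controls. Uxt itself, the deleted gene, stood at 6.76 and 8.04 CPM in the P1 controls and 5.76 and 6.41 in the P7 controls (-0.28 ± 0.18, adjusted p = 0.205). In the libraries labelled CKO it stood at 4.82 and 3.57 CPM at P1 and 7.66 and 6.62 CPM at P7. Both P1 libraries labelled CKO were below the P1 controls, but both P7 libraries labelled CKO were above the P7 controls, which goes against the label, and the change with age differed by 1.04 ± 0.26 (adjusted p = 0.0181), a call lost under the scaling on inner retinal genes and without 1 library in each of the 4 groups in turn. Counts are per gene, not for exon 3 alone, and cells outside the Cre lineage keep the gene.

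For most genes called in controls, the sign of the change was the same under both labels, whatever its size. Of the 10502 genes that changed in controls, 9821 (93.5%) had the same sign of change in the libraries labelled CKO. The same share over all tested genes was not taken. Across genes, which are not independent replicates, the 2 changes had a Pearson r of 0.777 over 21115 genes and 0.913 over 11694 genes of at least 10 CPM, as a description. The change with age differed between labels in 1514 genes (7.17%), with 753 higher in the libraries labelled CKO (3.57%) and 761 lower (3.60%). Leaving out any 1 of the 8 libraries of these groups brought the count to between 794 and 923, and the scaling on inner retinal genes to 391, while leaving out the P30 libraries raised it to 4546.

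Of 19 neurogenic precursor genes the change with age was higher under the CKO label in 15 and lower in none (9 and none under the scaling on inner retinal genes). Foxn4 stood at 73.6 and 69.0 CPM at P1 and 3.83 and 4.88 CPM at P7 in those libraries (difference from controls 2.07 ± 0.22) and Hes5 at 22.9 and 24.2 CPM at P1 and 12.9 and 13.3 CPM at P7 (2.00 ± 0.16). In each the CKO-labelled libraries were below the controls at P1 and above them at P7. Notch1 differed by 1.14. Robo3, a guidance receptor gene, did not change in controls beyond its error, with 33.3 and 30.9 CPM at P1 and 35.8 and 32.5 CPM at P7 (0.09 ± 0.10), but stood at 16 and 14.9 CPM at P1 and 92.5 and 86.4 CPM at P7 in the libraries labelled CKO (difference 2.44 ± 0.14).

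Of 16 photoreceptor transcription factors 8 had a higher change with age under the CKO label and 2 a lower one (1 under the scaling on inner retinal genes and without 7 of the 8 libraries in turn). Crx stood at 91.3 and 91.8 CPM at P1 and 563 and 556 CPM at P7, a lower start and a like end (difference 0.74 ± 0.06), and Nrl and Nr2e3 differed by 0.95 and 1.06. The cone gene Pde6c was lower at P7 than at P1 under the CKO label, with 18.0 and 18.0 CPM at P1 and 7.76 and 6.72 CPM at P7 (-1.49 ± 0.23), and Pde6h differed by -0.93, a call lost under the scaling on inner retinal genes and without replicate 1 of the P1 controls or of the P1 libraries labelled CKO. Arr3 and Grm6 had differences of -0.69 ± 0.50 and -1.32 ± 0.49 that did not pass the test (adjusted p = 0.498 and 0.219). Of 22 bipolar genes 6 differed downwards, against 1 under the scaling on inner retinal genes and 3 without 7 of the 8 libraries in turn. Gabrr1 differed by -2.08, Calb1 by -1.41 and Isl1 by -0.80. The call on Gabrr1 was lost without replicate 2 of the P1 controls or of the P1 libraries labelled CKO.

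Of 17 microglia genes 11 differed and all were lower (5 under the scaling on inner retinal genes), with Csf1r at 42.6 and 42.6 CPM at P1 and 50.4 and 50.6 CPM at P7 in the libraries labelled CKO (-0.75 ± 0.12): the P1 level there was close to the P7 level of both labels. Genes of other tissues differed as well, with all 5 red cell genes lower, such as Alas2 at 34.9 and 34.9 CPM at P1 and 15.8 and 16 CPM at P7 against 10.9 and 10.7 CPM at P1 and 52.0 and 47.2 CPM at P7 in controls (-3.34 ± 0.43), 8 of 13 cartilage and bone genes lower and 1, Col2a1, higher, and 5 of 13 cornea and skin genes higher. Krt71 had 0.325 and 0.0576 CPM at P1 and 314 and 307 CPM at P7 in the libraries labelled CKO (7.12 ± 0.25), and Scgb2b2, with counts near 0 at P1, had a fitted difference, which is no bound, of -9.35. The part of these tissues in the differences between labels was not tested.

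**Figure D5:**
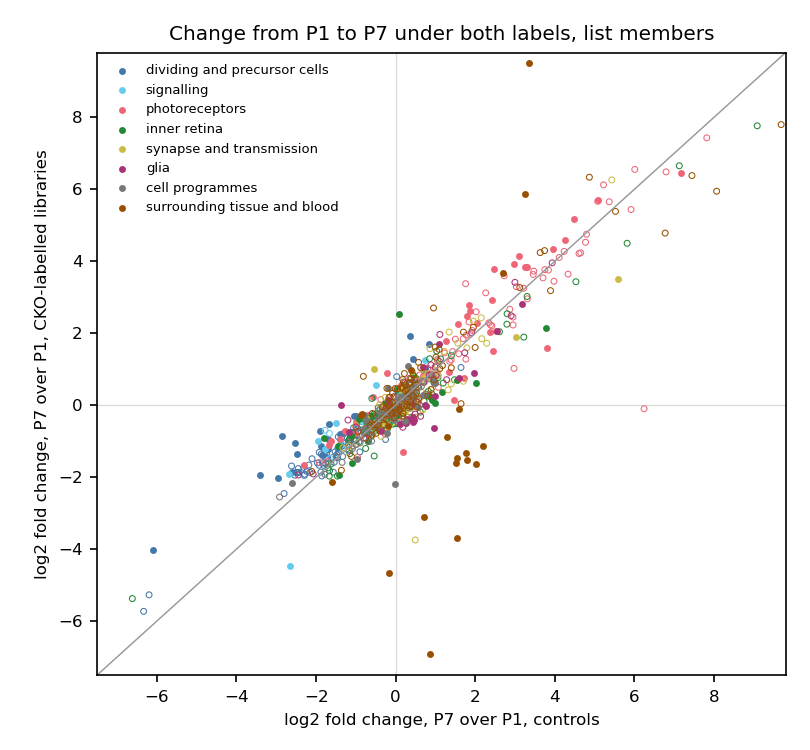
Log2 fold change of P7 over P1 in the libraries labelled CKO (vertical) against that in the controls (horizontal) for 781 of the 790 tested list members (9 lie outside the axes), coloured by class, with filled points for the 162 members whose change differed between labels (adjusted p under 0.05) and the line of equal change. Most members lie near the line, and filled points of precursor genes lie above it.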

How the data were processed

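The 16 libraries of mouse retina form 8 groups of 2 by age and genotype label. Per the labels, polyA+ RNA was sequenced as paired reads of 150 bases, and HISAT2, HTSeq and mm10 are named in the submitters' processing notes. Versions, annotation release and strand setting are not given in the sources used here. The deposited values are raw counts per gene, with no normalization by the authors found in them. Symbols and coordinates are those of GENCODE M21, which matched 54495 of the 54532 deposited identifiers.

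Genes were filtered by filterByExpr, scaled by TMM and fitted in 1 quasi-likelihood model over all 16 libraries (glmQLFit robust and glmQLFTest, edgeR 4.0.16, R 4.3.3; 8 residual degrees of freedom; common biological coefficient of variation 0.0635). P-values are two-sided with Benjamini-Hochberg adjustment over 21115 genes, and the SE is the log2 fold change divided by the square root of F. DESeq2 1.42.0, other scalings, filters and subsets of libraries were alternatives. Intervals and floors cover counting error only, since reads are not independent molecules.

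The comparison, the 46 lists and the tests were chosen with earlier results of these data known. Named genes are a fixed set, the 8 largest rises and falls (adjusted p under 0.05, at least 10 CPM, groups not overlapping, no predicted gene), and in each list up to 3 called members in each direction with at least 5 CPM and the 3 most abundant members not called. Cdk1, Cdkn2b, Neurod4, Prdm1, Cngb3, Iqcb1, Thy1, Arc and Lin28a were named after their values were seen. Some genes that meet the rule are not reported here. Exons of Fgf15, Ccnd1, Dll1, Rax, Slc6a9, Slc32a1 and Cdkn1c also share over 15% of their length with a gene on the opposite strand. The same holds for Opn1sw, Samd11, Syp, Sfrp2 and Csf1r.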

Additional observations from a re-analysis of the deposited data

Results flagged for a closer look

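Of the 200 genes named, 66 changed from P1 to P7 by a different amount in the libraries labelled CKO than in the controls, 41 upwards and 25 downwards. Each was tested by the interaction contrast of edgeR's quasi-likelihood model at an adjusted p under 0.05, with 2 libraries in each of the 4 groups. Values are the log2 change under the CKO label minus that in controls. Uxt differed by 1.04.

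Precursor and signalling genes differed upwards: Foxn4 (2.07), Hes5 (2.00), Neurod4 (1.57), Dll3 (1.48), Notch1 (1.14), Dll1 (0.76), Gli1 (0.76), Neurog2 (0.73), Neurod1 (0.85), Otx2 (0.85), Insm1 (0.28), Cdkn2c (0.60), Uhrf1 (0.65) and Plagl1 (0.44). Jag2 differed by -0.44 and Dio3, the hormone-destroying deiodinase gene, by -1.81. Genes of photoreceptors, cilia and thyroid hormone handling that differed upwards were Prdm1 (1.09), Nr2e3 (1.06), Nrl (0.95), Rpgrip1 (0.94), Rorb (0.79), Crx (0.74), Sag (0.70), Mak (0.67), Pde6b (0.62), Kif3a (0.52), Crym (0.52) and Prph2 (0.33). Of 15 cone genes 2 differed upwards, one of them Ccdc136 (0.57), and 3 downwards, Pde6c (-1.49), Pde6h (-0.93) and Thrb (-0.39). In the ribbon synapse list 1 gene differed upwards and 2 downwards, one of these Cabp4 (-2.23).

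Among genes of inner neurons, neurites, transmission, splicing and glycolysis, Robo3 (2.44), Grik3 (1.57), Gad2 (0.89), Srrm4 (0.77), Ptbp2 (0.53), Ephb2 (0.31) and Stmn1 (0.26) differed upwards. Those that differed downwards were Gabrr1 (-2.08), Calb1 (-1.41), Cabp5 (-0.94), Isl1 (-0.80), Irx2 (-0.60), Dcx (-0.52), Slc12a2 (-0.39) and Hk1 (-0.37). Glial and vascular genes split, with Ermn (1.37), Kdr (0.60), Dkk3 (0.41) and Gfap (0.37) and, downwards, Abca8a (-1.08), C1qa (-0.76), Csf1r (-0.75), Cx3cr1 (-0.72) and Mbp (-0.38). Genes of other tissues and blood cells that differed were Krt71 (7.12), Alas2 (-3.34), Hdc (-1.04), Col2a1 (0.61) and Myh3 (-0.56). The fitted differences of the gland genes, Scgb2b2 (-9.35), Obp1a (-5.76) and Mucl2 (-5.20), rest on P1 counts near 0 and are no bounds.

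Of the 66 calls, 31 held under the scaling on inner retinal genes, 48 to 54 without 1 library in turn, and 66 with the replicate block.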

How the results depend on the processing

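No called log2 fold change of a named gene changed sign under any alternative, in any of the 3 comparisons. List medians near 0 did: apoptosis and ribosomal protein genes went from -0.09 and -0.12 to 0.05 and 0.02 under the scaling on inner retinal genes, and amacrine genes from 0.10 to -0.01 at a filter of 5 CPM. More immediate early genes fell than rose (4 and 2), but 7 to 8 rose and 5 fell without P30 or on controls alone. For P7 against P1, 10502 genes were called, and the other settings gave 7720 (scaling on amacrine, horizontal and ganglion cell genes) to 12500 (without the P30 libraries), with 9429 by DESeq2 and 8548 to 8727 without 1 library in turn. Against a 2-fold change (glmTreat) 1839 genes were called, 1271 higher and 568 lower, by the stricter question asked. For the difference between the steps, 5441 genes became 2880 under that scaling, 8296 without P30 and 3308 to 4559 without 1 library in turn. For the difference between labels, 1514 genes became 391 under that scaling, 4546 without P30, 4536 on the P1 and P7 libraries alone and 794 to 923 without 1 library in turn. The cause of these moves was not tested. Of 185 named genes called for P7 against P1, 163 kept the call in every alternative except the 2-fold test. The scaling on inner retinal genes ended 15 calls, and leaving out 1 control library ended 16, of which 7 (Egr2, Gngt2, Lin28a, Otx2, Rfng, Stra6 and Thrb) were not ended by that scaling. Of 15 named genes not called, Bsn, Nefl and Pde6c were called in at least 1 alternative. The labels do not say whether replicate numbers pair the libraries. The deviations of replicate 1 from its group mean had r = 0.0434 between P1 and P7, which with 2 libraries in a group cannot settle it. With the replicate block 10494, 5400 and 1448 genes were called for these 3 comparisons. Genes near the floor of 3 counts are limited by depth, and groups of 2 by their number.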
